A study of Arabidopsis thaliana with 2 samples.

Results

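The SAUR genes (SMALL AUXIN UP RNA) are described here through the nucleosomes listed in and around them in Arabidopsis thaliana seedlings. Members are the protein-coding genes of the RefSeq table, assembly TAIR10.1, whose symbol is SAUR followed by a number. The table holds 16 of them among 27444 protein-coding genes on the nuclear chromosomes. A further 64 genes carry a SAUR number only among their synonyms and are not members, so the members are a small share of the family. The symbol and the gene do not match in every case. AT5G01830 has the symbol SAUR21 and is 2865 bp long, while AT5G18030, inside the chromosome 5 array, carries SAUR21 as a synonym. The other 15 members are between 587 and 1177 bp long. AT5G01830 is a member by its symbol alone, and whether it encodes a SAUR protein was not checked. Most main values are also given without AT5G01830, which is called SAUR21 (AT5G01830) below.

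Seedlings of 2 genotypes, Col-0 wild type and nrpe1, were grown for 2-3 weeks in long days, and 1 library was made from each. NRPE1 is the largest subunit of RNA polymerase V, which acts in RNA-directed DNA methylation. Micrococcal nuclease cuts linker DNA, so the protected fragments mark nucleosomes. The authors deposited 1 list that joins both libraries and names no genotype, so nrpe1 and Col-0 were not compared. The list has 397452 nucleosomes, each with a start, an end and the authors' score, and the depth of the libraries is unknown. Values below describe this list without replicates. No difference between groups of genes was tested, and intervals cover counting error only.

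Auxin binds TIR1/AFB receptors, which leads to the breakdown of Aux/IAA repressors and frees auxin response factors to switch on early response genes. SAUR genes are a large class of these early genes and encode small proteins. Several SAUR proteins inhibit PP2C.D phosphatases, which keeps plasma membrane proton pumps active, acidifies the wall and lets cells expand. Many SAUR genes lie in tandem arrays of similar copies, and most have no intron.

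Every SAUR gene held at least 1 listed nucleosome centre, and most held 2 to 4. The 16 bodies held 57 centres, from 1 in SAUR15 to 16 in SAUR21 (AT5G01830), with a median of 3. Without SAUR21 (AT5G01830) the other 15 genes held 41 centres and no more than 4 each. Of all protein-coding genes 1.11% held no centre, so the absence of empty genes among 16 members is near the background. The median length of a listed nucleosome in a SAUR body was 141 bp, against 138 bp in the whole list. The lengths ran from 120 to 179 bp.

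Per kb, SAUR bodies were close to other genes. Their median was 3.81 centres per kb (quartiles 3.10 and 4.80), against 4.03 over all protein-coding genes (quartiles 3.05 and 5.07). Without SAUR21 (AT5G01830) the median was 3.67 per kb, and the 4082 protein-coding genes of 587 to 1177 bp had a median of 4.29 per kb. These 4082 genes share the length range of the 15 members but had a median length of 914 bp, against 730 bp. The lower quartile of all genes was not reached by 4 of the 16, and 3 passed the upper one, where 25.0% of all genes lie by definition on each side. The lowest 5 were SAUR15 at 1.29, SAUR23 at 2.47, SAUR27 at 2.74, SAUR26 at 2.81 and SAUR24 at 3.19 centres per kb. The highest 5 were SAUR75 at 6.22, SAUR21 (AT5G01830) at 5.58, SAUR28 at 5.11, SAUR20 at 4.98 and SAUR19 at 4.74 centres per kb. In a gene under 1 kb, 1 centre more or less moves the value by over 1 per kb, so neighbours in this order are not told apart.

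**Figure D1:**
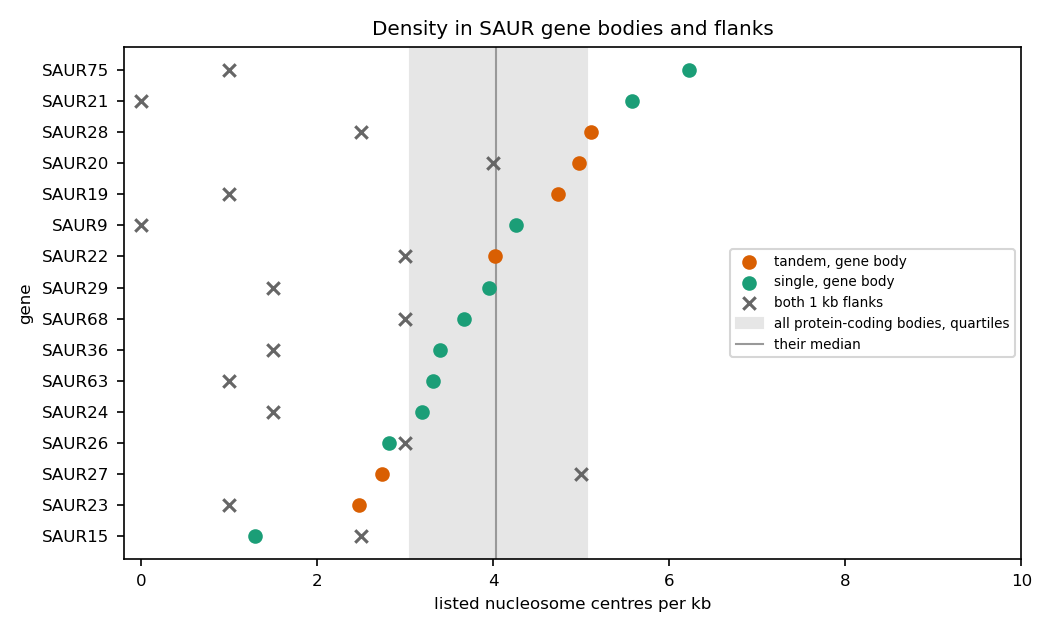
Listed nucleosome centres per kb (x axis) in the body of each of 16 SAUR genes (circles, coloured by tandem or single position) and in its 1 kb flanks on both sides together (crosses), with the quartiles and median of all protein-coding gene bodies as a band and a line. Bodies run from 1.29 per kb in SAUR15 to 6.22 in SAUR75, and only in SAUR15, SAUR26 and SAUR27 is the flank value the higher one.

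The authors' scores of SAUR body nucleosomes had a median of 0.810 and ran from 0.558 to 0.942. In the whole list they ran from 0.50 to 0.991 with a median of 0.790. At or above that median were 35 of 57, or 61.4% (exact binomial 95% interval 47.6 to 74.0), so a share like that of the list is inside the interval. This count used rounded scores and left out a SAUR21 (AT5G01830) nucleosome with a rounded score of 0.790. By unrounded scores that nucleosome reaches the median and is among the 12 given for its gene below. The highest score in a body, 0.942, belonged to SAUR28. The nucleosome lay on chromosome 3 at 980301 to 980466. SAUR23 stood at the other end, with 2 nucleosomes of 0.558 and 0.686, both under the median of the list.

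The centres sat towards the middle of the SAUR genes. Of the 57 body centres 45 lay in the central 50% of their gene, or 78.9% (exact binomial 95% interval 66.1 to 88.6). The share was 53.4% in all protein-coding genes and 54.8% in those of 587 to 2865 bp. Without SAUR21 (AT5G01830) this was 85.4% (70.8 to 94.4), against 60.3% in protein-coding genes of 587 to 1177 bp. The 64 genes named SAUR only by synonym stood between, at 73.9% (67.5 to 79.7). In 10 of the 16 members every body centre lay in the central 50%, against 19.3% of protein-coding genes of 587 to 1177 bp and 6.17% of all protein-coding genes. These 10 were SAUR63, SAUR36, SAUR28, SAUR27, SAUR26, SAUR15, SAUR19, SAUR23, SAUR24 and SAUR75. The share of such genes also depends on how many centres a gene holds, which was a median of 3 in members and 4 in genes of 587 to 1177 bp.

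**Figure D2:**
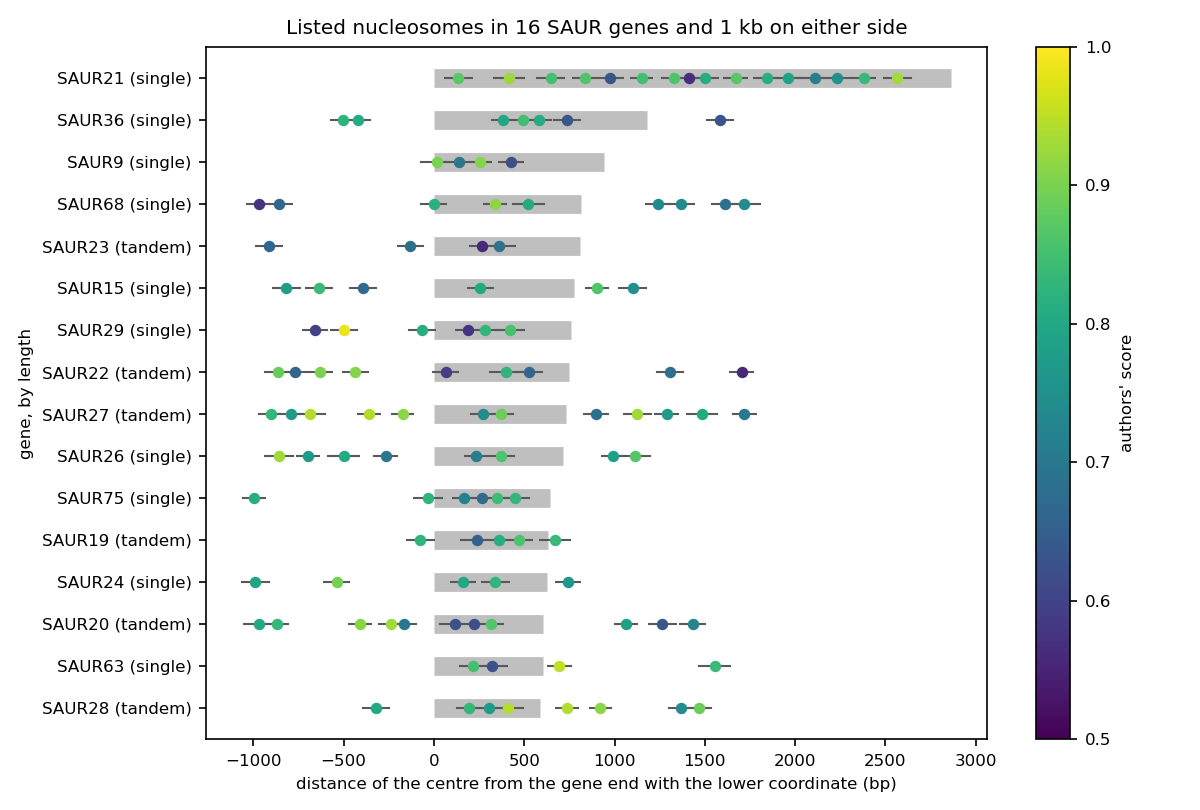
Listed nucleosomes along each of 16 SAUR genes, ordered by length, by distance of the centre in bp from the gene end with the lower coordinate. Grey bars are gene bodies, points are centres coloured by the authors' score, and thin lines are the listed intervals. In 13 of 16 genes no centre lies within the 100 bp just inside either end, and SAUR9 and SAUR21 have empty flanks.

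Few centres lay just inside the ends of the genes. In 13 of 16 members the 100 bp just inside each end held no centre, against 57.7% of protein-coding genes of 587 to 1177 bp and 65.8% of all. The exceptions were SAUR68, SAUR9 and SAUR22, with centres 0, 15 and 66 bp inside the end with the lower coordinate. When 100 bp outside the gene were added, 9 of 16 members had both ends free, against 46.3% of protein-coding genes of 587 to 1177 bp and 51.7% of all, a share near the background. By distance from the nearer end, the 15 members without SAUR21 (AT5G01830) held 1.67 centres per kb in the 100 bp outside (exact Poisson 95% interval 0.541 to 3.89), against 1.46 per kb in genes of 587 to 1177 bp, which lies inside that interval. They held 1 per kb in the first 100 bp inside (0.206 to 2.92), from 3 centres, where genes of 587 to 1177 bp held 2.63 per kb. At 200 to 300 bp inside they reached 6.03 per kb (3.57 to 9.53), against 5.04 per kb. The comparison values of 2.63 and 5.04 per kb also lie inside the intervals of the members. The intervals of these bins are wide, since each holds at most 18 centres.

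**Figure D3:**
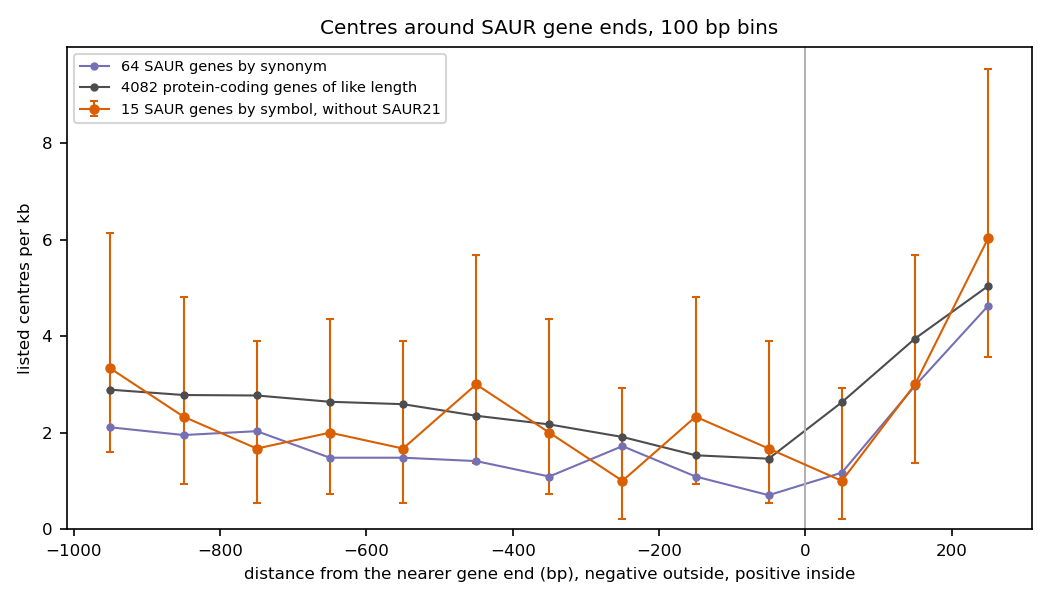
Listed centres per kb (y axis) by distance in bp from the nearer gene end (x axis, negative outside, positive inside, 100 bp bins) for 15 SAUR genes by symbol without SAUR21 with exact Poisson 95% intervals, 64 SAUR genes by synonym, and 4082 protein-coding genes of 587 to 1177 bp. The 15 SAUR genes are at 1 per kb in the first 100 bp inside and at 6.03 per kb at 200 to 300 bp inside. The values of the 4082 genes in these bins, 2.63 and 5.04 per kb, lie inside those intervals.

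Positions relative to gene ends carry an offset of the whole list. Over all protein-coding genes, with strands mixed, the profile of centres at the ends with the lower coordinate matched that at the ends with the higher coordinate best at a lag of 55 bp. The lag lay between 50 and 60 bp on each of the 5 chromosomes, and centres sat nearer the lower ends. With the list shifted by 27.5 bp, which makes both sides of the average gene alike, 13 of 16 members again had no centre in the 100 bp inside either end. The share in the central 50% stayed at 78.9%. Distances from single gene ends below are as listed.

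The outermost body centres of the 16 members lay nearer the end with the lower coordinate. The first centre was closer to the lower end than the last was to the higher end in 14 of 16 members, with medians of 190.5 and 296.5 bp. This held for 56.4% of protein-coding genes with a centre, whose medians were 202.5 and 244.5 bp, and for 58.4% of those of 587 to 1177 bp. After the shift it held for 49.8% of protein-coding genes with a centre, 13 of 16 members and 53.1% of the 64 genes named SAUR by synonym. The shifted medians were 218 and 269 bp in members and 238 and 268.5 bp in the genes named by synonym. In all protein-coding genes with a centre they were 224 and 223.5 bp. The gene table gives no strand, so which end is the start of each gene was not used here.

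Neighbouring nucleosomes in SAUR bodies were listed close together. In the 15 members without SAUR21 (AT5G01830) 26 steps lay between successive centres of a body, with a median of 109 bp (84.5 to 337). The median step was 119.5 bp in the genes named SAUR by synonym, 127.5 bp in protein-coding genes of 587 to 1177 bp and 155 bp in all. The listed intervals overlapped in 19 of the 26 steps, or 73.1% (exact binomial 95% interval 52.2 to 88.4). In genes of 587 to 1177 bp the share was 56.5%, which lies inside that interval. Overlap was counted from 1 shared bp, and the precision of the listed ends is not known. An overlap therefore need not mean positions that exclude each other in the same chromatin fibre. Whether overlapping positions come from Col-0, nrpe1 or both was not analysed here.

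The chromosome 5 array holds SAUR19, SAUR20, SAUR22, SAUR23 and SAUR24, the subfamily best known for driving cell expansion through the proton pump. SAUR19 (AT5G18010) held 3 nucleosomes in 633 bp, at 5962923 to 5963099, 5963046 to 5963224 and 5963171 to 5963316. Each overlapped the next, and with a further one across the gene's end they covered 69.2% of the gene. SAUR20 (AT5G18020) also held 3 in 603 bp, at 5966218 to 5966385, 5966338 to 5966473 and 5966435 to 5966566. Both genes thus carried a compact set of 3, whose centres spanned 233 bp in SAUR19 and 199 bp in SAUR20. How reads that match several SAUR copies were placed was not given, and its effect on the genes of this array was not tested.

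Their scores differed in pattern. In SAUR20 the first and second scored 0.627 and 0.620 and the third 0.864, and in SAUR19 the scores were 0.650, 0.810 and 0.858. The flanks differed more, with 2 nucleosomes around SAUR19, 76 bp and 40 bp outside its ends, and 8 around SAUR20. All 8 of the SAUR20 flank lay outside protein-coding genes, 5 of them on the lower side.

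SAUR22 (AT5G18050) held 3 nucleosomes in 747 bp, with centres 66, 397 and 527 bp from the lower end. SAUR23 (AT5G18060), its neighbour 692 bp away, held 2 in 810 bp, with centres 264 and 363 bp from the lower end and none in the last 446 bp. Only 30.7% of SAUR23 was covered, against 57.0% of SAUR22. SAUR24 (AT5G18080), farther along, held 2 in 626 bp, at 5983779 to 5983908 and 5983947 to 5984098. These did not overlap, and their scores were 0.797 and 0.827. With AT5G18030, which held 2 in 839 bp, the 6 genes of the array held 15 centres, 3.52 per kb, and 13 of these lay in the central 50% of their gene.

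The chromosome 3 array holds SAUR29, SAUR28, SAUR27 and SAUR26, close relatives that have been tied to growth at warm temperature. Between SAUR27 and SAUR26 lies AT3G03847, SAUR73 by synonym. SAUR29 (AT3G03820) held 3 nucleosomes in 760 bp, at 976838 to 976964, 976922 to 977075 and 977059 to 977212, all overlapping the next. Its flanks were unequal, with 3 on the lower side and none on the other, where the next centre was 2181 bp away. One of the 3, at 976145 to 976287 inside the neighbouring gene EDA30, had a score of 0.983, the highest in any SAUR window.

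SAUR28 (AT3G03830), the shortest member at 587 bp, held 3 nucleosomes with scores of 0.832, 0.774 and 0.942. They covered 61.5% of the gene. SAUR27 (AT3G03840) held only 2 in 730 bp, at 981277 to 981412 and 981384 to 981507, and 31.6% of it was covered. In its flanks lay 10, the most of any member, and 6 of these belonged to the neighbours SAUR28 and AT3G03847. SAUR26 (AT3G03850) held 2 in 712 bp, at 983226 to 983349 and 983361 to 983501, which did not overlap. The 4 genes held 10 body centres and 24 in their flanks, where a nucleosome between neighbours counts for each. Their bodies, at 3.59 per kb pooled, were 1.20 times as dense as their flanks, against 1.66 times in all protein-coding genes.

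SAUR63, SAUR68 and SAUR75 belong to the subfamily of SAUR61 to SAUR68 and SAUR75, which promotes elongation of hypocotyls and stamen filaments. SAUR63 (AT1G29440) held 2 overlapping nucleosomes in 602 bp, at 10304651 to 10304798 and 10304742 to 10304913. It lies wholly inside another gene model, AT1G29435, so its rows belong to both. No centre lay in the 1 kb on its lower side, where the nearest was 1382 bp away. A nucleosome 93 bp beyond its higher end had a score of 0.955.

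SAUR68 (AT1G29510, SAUR67 by synonym) held 3 nucleosomes in 817 bp, none of which overlapped, with scores of 0.820, 0.913 and 0.803. The first was centred on the end of the gene model itself. All 6 in its flanks lay in the neighbouring genes AT1G29500 and AT1G29520. SAUR75 (AT5G27780), on chromosome 5 but away from the array, had the highest density of the members, with 4 nucleosomes in 643 bp. Their intervals, at 9838918 to 9839042, 9839013 to 9839139, 9839093 to 9839228 and 9839181 to 9839341, overlapped in a chain with a median step of 96 bp. The third scored highest, at 0.842.

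The remaining members lie outside these arrays, though SAUR15 has neighbours that are SAUR genes by synonym. SAUR15 (AT4G38850), also known as SAUR-AC1 and often used as a marker of the auxin response, had the sparsest body, with 1 nucleosome in 773 bp. It lay on chromosome 4 at 18126244 to 18126384 with a score of 0.803, and 18.2% of the gene was covered. The last 515 bp of SAUR15 held no centre, yet 5 lay in its flanks. Its neighbours AT4G38840 and AT4G38860 are SAUR14 and SAUR16 by synonym, and 2 of the 5 lay in AT4G38840. At 1.29 per kb SAUR15 stood at the 3.05 percentile of all protein-coding genes.

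SAUR9 (AT4G36110), which encodes an inhibitor of PP2C.D phosphatases, held 4 nucleosomes in 940 bp, all on its lower side, at 15, 139, 256 and 427 bp from that end. Its 1 kb flanks held none, and the nearest centres outside lay 2662 and 2394 bp away. SAUR36 (AT2G45210, also SAG201), which promotes leaf senescence, held 4 in 1177 bp, on chromosome 2 from 18641886 to 18642369. Its outermost body centres lay 384 bp inside the lower end and 441 bp inside the higher end. SAUR21 (AT5G01830) held 16, covering 73.9% of its 2865 bp, with a median step of 168 bp, and 12 scored at or above the median of the list. Like SAUR9 it had empty flanks, with the nearest centres 1971 and 1416 bp away. Empty flanks on both sides occurred in 2 of 16 members and in 4.73% of all protein-coding genes.

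Counted with 1 kb on either side, SAUR genes held 4 to 16 listed nucleosomes, with a median of 6.5 against 13 in all protein-coding genes. Without SAUR21 (AT5G01830) the median was 6. In genes of 587 to 1177 bp the median was 8, but these genes were longer, at a median of 914 bp against 730 bp in the 15 members. The most were listed for SAUR21 (AT5G01830) with 16, SAUR27 with 12 and SAUR20 with 11. The fewest, 4 each, were listed for SAUR63, SAUR9 and SAUR23. The windows held 106 different nucleosomes, 14 of them in more than 1 window. The body was denser than the flanks in 13 of 16 members, or 12 of 15 without SAUR21 (AT5G01830), against 79.8% of all protein-coding genes.

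Tandem SAUR genes had a higher median in their windows than single ones, while the medians of their bodies were equal. A member was called tandem when the next protein-coding gene on either side was also a member, which held for 6, the pairs SAUR28 and SAUR27, SAUR19 and SAUR20, and SAUR22 and SAUR23. Their windows held a median of 8.50 (4 to 12), against 6 (4 to 16) in the 10 single members, and the ranges overlapped. Bodies held a median of 3 centres in both. When a nucleosome in several windows was counted once, for the nearest member, the medians were 5.50 and 6, so the order turned. Such counting can only lower windows that share nucleosomes, and window lengths were not adjusted for it. It therefore does not show which order is right. By a gap of 10 kb or less to another member, 9 were tandem with a median of 8, and 7 were single with a median of 6. With a SAUR number among the synonyms of the neighbour also accepted, a definition chosen after seeing the data, 10 were tandem and the medians were again 8 and 6. The bodies of these 10 then held a median of 2.50, against 4 in the other 6.

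**Figure D4:**
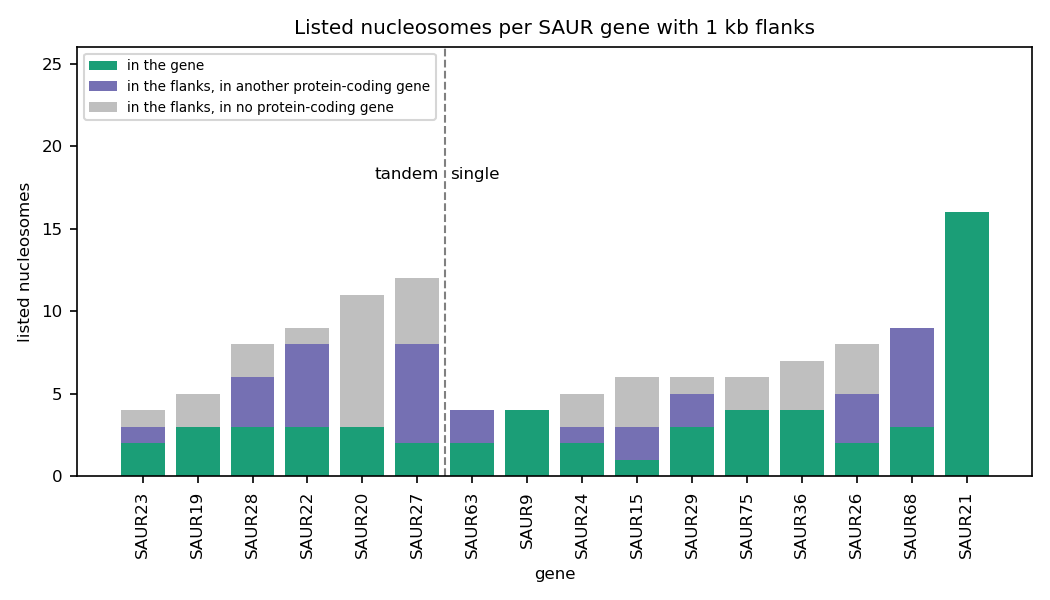
Number of listed nucleosomes (y axis) for each SAUR gene with 1 kb on either side, split into those centred in the gene, in the flanks inside another protein-coding gene, and in the flanks inside none. Tandem genes are left of the dashed line (4 to 12 in all) and single genes right of it (4 to 16).

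In the flanks, nucleosomes were denser inside neighbouring genes than between genes. Of the 63 flank centres 31 lay in another protein-coding gene, although such genes made up 26.4% of the flank. That was 3.67 per kb in other genes and 1.36 per kb outside them. Over all protein-coding genes the values were 4.06 and 1.30 per kb, and other genes made up 41.1% of their flanks. Here a centre or base in the flanks of several members counts for each. With each counted once, the flanks outside genes of the 6 tandem members held 2.03 per kb, from 15 centres, and those of the 10 single members 0.936 per kb, from 14. Without SAUR20 the tandem value was 1.30 per kb, from 7 centres, and without SAUR21 (AT5G01830) the single value was 1.08 per kb.

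The 64 genes named SAUR only by synonym gave similar values. They held 211 centres, a median of 3 per gene and 3.50 per kb, and none was empty. Their flanks held 1.51 per kb, against 1.97 per kb in members, 2.10 without SAUR21 (AT5G01830), and 2.43 in all protein-coding genes. SAUR61, SAUR62, SAUR64, SAUR65, SAUR66 and SAUR68 (AT1G29490), 6 relatives of SAUR63 on chromosome 1, held 2 or 3 centres each at a median of 3.04 per kb, and all 16 centres lay in the central 50% of their gene. SAUR40, SAUR41, SAUR71 and SAUR72, a subfamily linked to cell expansion, held 4 each, between 4.09 and 5.97 per kb. SAUR76, SAUR77, SAUR78 and SAUR79 held between 2 and 6, from 1.66 per kb in SAUR78 to 5.71 in SAUR76.

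Other genes of the auxin pathway spread around the median of 4.03 per kb. The Aux/IAA repressors, by symbol or synonym, had a median of 3.25 per kb, with 12 of 32 below the lower quartile of all genes and 5 above the upper one. The pattern also caught 3 auxin response factors, and without them the median was 3.19 per kb in 29 genes. The auxin response factors had a median of 4.24 per kb in 25 genes, and the same without 2 ADP-ribosylation factors, with 9 below the lower quartile and 4 above the upper. The 9 GH3 genes, most of which encode enzymes that link auxin to amino acids, had a median of 5.08 per kb, with 1 below and 5 above. The 6 TIR1/AFB receptors had a median of 5.32 per kb with 1 below and 3 above, and the 11 YUCCA genes of auxin synthesis 4.61 per kb with 1 below and 3 above. With all scores counted, SAUR genes at 3.81 per kb lay between the Aux/IAA genes and the response factors. With only nucleosomes of at least the median score the order turned, and SAUR genes stood at 1.19 times the median of all genes, above Aux/IAA genes at 0.976 and response factors at 0.911. The SAUR value of 1.19 stayed inside its counting interval of 0.716 to 1.22. It rests on few centres, from 0 in SAUR23 to 12 in SAUR21 (AT5G01830), and is not given without the latter gene.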

How the data were processed

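MNase-digested DNA was size-selected on an agarose gel, per the labels, and Bowtie and TAIR10 appear in the submitters' processing notes. The aligner's version, the nucleosome caller, the joining of the libraries and the placing of reads that match several SAUR copies were not given in the sources used here. Per the file headers, the authors deposited 1 pooled list with the start, end and score of each nucleosome. The score has no definition there and served only to describe and rank. No column holds values of 1 library, and depth is unknown.

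Genes came from the RefSeq table of TAIR10.1, which was read for symbols, neighbours, lengths and distances and gives neither strand nor exons. A nucleosome belonged to a gene by its centre, and flanks were 1 kb. Counts and shares were computed with Python 3.11.15, pandas 2.3.3, numpy 2.4.6 and scipy 1.17.1, and counting was tested on simulated data. Intervals are exact binomial or exact Poisson at 95% and cover counting error only.

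Named were the members with the lowest and highest body density (5 each), those with the most and fewest nucleosomes in the window (3 each), the highest score, tandem arrays and 4 subfamilies. The members and lists were chosen with earlier results of these data known. Promoter motifs and sequences were not used here.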

Additional observations from a re-analysis of the deposited data

How the results depend on the processing

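Of 40 alternative values 33 stayed inside the 95% counting interval of the reported value. The 33 include body density in members of 500 bp or longer. That setting removes no member, since the shortest has 587 bp, so its value of 0.945 could not change. For ratios of medians this interval was scaled from the counting error of summed centres, with shared centres counted for each window and SAUR21 (AT5G01830) included. It does not measure the spread of a median between genes, so staying inside it does not show that a median is stable. Body density was 0.945 of the median of all protein-coding genes and ranged from 0.888 to 1.19, the latter, above 1, with only nucleosomes of at least the median score. Windows held 0.50 of the median of all genes, and left the interval at 0.675 with flanks of 2 kb and at 0.812 against genes of 587 to 1177 bp. The tandem to single ratio of windows, 1.42, became 0.917 when each nucleosome was counted once. That removes sharing between neighbours but can only lower windows that share nucleosomes. With only nucleosomes of at least the median score, Aux/IAA genes moved from 0.807 to 0.976 of the median of all genes, auxin response factors from 1.05 to 0.911, TIR1/AFB from 1.32 to 1.02 and YUCCA from 1.14 to 0.873, and the cause was not tested. The alternatives without SAUR21 (AT5G01830), with synonyms, with the list shifted, with genes of 587 to 1177 bp, and without genes of another kind in the auxin lists were chosen after seeing the data. No paired analysis was possible because the list joins both libraries, and no promoter alternative was run. With 1 to 4 centres per short gene, single genes cannot be ranked finely.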

Other observations

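SAUR73 (AT3G03847), named by synonym only and inside the chromosome 3 array, had 3 centres in 396 bp, or 7.58 per kb, the highest of the 80 genes. SAUR32 (AT2G46690) held 1 centre in 896 bp, 1.12 per kb, the lowest of the 80, and none in its flanks. These genes were singled out after their values had been seen.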
